A study of Mus musculus with 6 samples.

Results

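Lectin and Fc receptors of myeloid and natural killer (NK) cells were followed in pre-B cells that lack Mef2c. Members were chosen by gene symbol alone, as genes of the Clec, Klr, Lilr, Pilr, Fcgr, Siglec, Cd300 and Trem families and Cd33, leaving out Siglech. The name rule gave 68 of the 17372 genes with a probe set of a single symbol, made up of 26 Clec, 18 Klr, 2 Pilr, 5 Fcgr, 4 Siglec, 6 Cd300 and 6 Trem genes and Cd33, and 0 Lilr genes. Pre-B cells sorted as B220+IgM-CD43- from bone marrow were profiled on Affymetrix mouse expression arrays, with 3 arrays from Mef2c-deficient and 3 from control mice, all 9 months old. Mef2c-deficient mice were Vav-Cre Mef2cfl/fl, in which Vav-Cre deletes the floxed alleles throughout blood-forming cells and not in pre-B cells alone. According to the study's methods, age-matched controls were mice with floxed alleles and no Cre (Mef2c fl/fl or Mef2c fl/+) or with Cre and a single floxed allele (Vav-Cre Mef2c fl/+). Which of these an array came from is not given in the sources used here. The samples are called independent without a statement of the animals, so p-values measure the spread between these arrays, whose small number limits precision. A further 4 probe sets of these families, left out because each carries several symbols, had lower means by 0.26 to 0.64 on the log2 scale, with groups that overlapped. Mef2c itself was not analysed here and gives no check of the labels.

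These receptors read sugars, sialic acids, lipids, antibody constant regions or self molecules on neighbouring cells. Inhibitory members carry a tyrosine motif that recruits phosphatases such as the product of Ptpn6. Many activating members instead pair with adaptors, such as the products of Tyrobp and Fcer1g, which recruit the kinase Syk, or that of Hcst. Most are known from NK cells, neutrophils, macrophages and dendritic cells. B-lineage cells are known for a small number of them, above all the inhibitory Fc receptor gene Fcgr2b and the inhibitory sialic acid receptor gene Siglecg.

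Most of the receptor genes had higher means in Mef2c-deficient than in control pre-B cells, but none passed the test across all genes. Means were higher for 62 of the 68 genes (91.2%), against 52.5% of all genes tested, and the median log2 difference was 0.61 for the receptor genes and 0.073 for all genes. Without Mef2c-deficient replicate 3, 49 of the 68 means were higher and these medians were 0.39 and 0.029. Clec4a3, a C-type lectin gene of the Dcir group, had the smallest p, with a difference of 2.24 on the log2 scale (SE 0.26, limma adjusted p = 0.0737). Clec2d, which encodes the lectin ligand Clr-b of the NK receptor Klrb1b, was the single gene with a lower mean at an unadjusted p under 0.05 (-1.56, SE 0.58, limma adjusted p = 0.177). With limma, 0 of the 68 genes had an adjusted p under 0.05 (0.0173% of all genes did). At an unadjusted p under 0.05, 9 were higher and 1 lower, where 8.32% and 15.4% of all genes were. With the replicate number as a block, 14 were higher and 2 lower, against 9.43% and 17.1% of all genes. In 14 genes every Mef2c-deficient array lay above every control array and in 0 every one lay below, where this held for 15.8% and 18.7% of all genes.

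Values are log2 of the deposited intensity, and differences are Mef2c-deficient minus control. The base of the deposited scale is not stated, and the highest value exceeds the 16 bits of a scanner as a log2 value but not as a natural log. If the base was e, each log2 difference is 0.69 times the printed one, while p-values stay as given. As probe sets differ in their affinity, no level of a gene is set against that of another. RNA of a sorted population was measured, so fewer cells of a type and less RNA per cell cannot be told apart.

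Upstream sequences are shown for 5 genes, chosen to show the leading gene of the comparison and the places of an Ets and a MEF2 motif. RefSeq gives an upstream window of 250 bases (build GRCm38.p6) for 57 of the 68 genes, with the listed start of the lowest coordinate taken where a gene had several. The Ets core GAGGAAG is a purine-rich sequence bound by the Ets factor PU.1. It was found on either strand in 18 of the 57 windows (31.6%), against 10.4% of 27025 windows of this length. In 6 of the 18 a core began within 50 bases of the start, among them Trem2, Cd300lf and Cd300a. The MEF2 motif, searched on both strands, was found in 3 windows (5.26%), against 2.98% of all windows. None of these 3 held an Ets core, and they belonged to the NKG2 genes Klrc1, Klrc2 and Klrc3. The windows of Klrc2 and Klrc3 are near-identical, with the motif 219 bases before the start in both, so they are not separate matches. Capitals mark the Ets core in Trem2, Cd300lf and Cd300a and the MEF2 motif in Klrc2, and the Clec4a3 window holds neither. They lie at chr6:122952265-122952514 (plus strand, Clec4a3), chr17:48346151-48346400 (plus, Trem2), chr11:115133993-115134242 (minus, Cd300lf), chr11:114889791-114890040 (plus, Cd300a) and chr6:129660557-129660806 (minus, Klrc2).
Clec4a3: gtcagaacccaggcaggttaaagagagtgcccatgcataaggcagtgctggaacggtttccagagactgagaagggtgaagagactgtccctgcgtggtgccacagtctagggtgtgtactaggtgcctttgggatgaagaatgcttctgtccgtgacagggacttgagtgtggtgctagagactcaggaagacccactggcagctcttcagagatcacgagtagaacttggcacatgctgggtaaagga
Trem2: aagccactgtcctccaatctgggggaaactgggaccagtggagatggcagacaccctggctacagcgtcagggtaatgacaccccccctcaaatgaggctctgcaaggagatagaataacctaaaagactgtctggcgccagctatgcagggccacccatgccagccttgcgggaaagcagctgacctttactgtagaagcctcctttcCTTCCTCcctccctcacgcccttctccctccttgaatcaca
Cd300lf: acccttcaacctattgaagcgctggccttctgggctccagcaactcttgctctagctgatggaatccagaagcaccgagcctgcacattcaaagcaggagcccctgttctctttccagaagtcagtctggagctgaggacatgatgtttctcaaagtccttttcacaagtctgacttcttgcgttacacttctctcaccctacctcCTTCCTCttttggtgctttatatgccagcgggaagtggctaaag
Cd300a: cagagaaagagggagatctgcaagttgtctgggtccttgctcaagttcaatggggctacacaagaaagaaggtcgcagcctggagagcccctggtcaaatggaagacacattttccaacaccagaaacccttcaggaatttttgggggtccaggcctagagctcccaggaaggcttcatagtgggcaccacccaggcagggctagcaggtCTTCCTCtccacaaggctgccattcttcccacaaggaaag
Klrc2: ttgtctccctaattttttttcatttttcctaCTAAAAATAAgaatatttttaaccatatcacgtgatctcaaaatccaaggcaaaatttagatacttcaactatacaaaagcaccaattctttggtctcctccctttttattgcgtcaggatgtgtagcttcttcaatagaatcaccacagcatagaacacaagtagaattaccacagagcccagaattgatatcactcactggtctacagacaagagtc
The core began 41 bases before the start in Trem2, 44 in Cd300lf and 40 in Cd300a, and the MEF2 motif 219 bases before it in Klrc2. Genes with the Ets core had a median log2 difference of 0.67, with 17 of 18 means higher, and the 39 without it one of 0.48, with 36 means higher. The 3 NKG2 genes were dim and had log2 differences of 0.92, 0.30 and 0.26 with limma adjusted p between 0.514 and 0.61. A motif match describes these letters only, and whether any factor binds there was not tested.

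Inhibitory receptors held 5 of the 9 genes with higher means at an unadjusted p under 0.05, a call that 8.32% of all genes met. Of 18 genes of this role, 16 had higher means in Mef2c-deficient cells, and the median log2 difference was 0.83. Without Mef2c-deficient replicate 3, 14 of the 18 means were higher, with a median of 0.49. The 5 called genes were Klrb1b, Clec4a2, Clec12b, Klrg1 and Cd300lf. Each was higher in every Mef2c-deficient array than in every control array, as was Klra2, where this held for 15.8% of all genes.
Clec4a2, the inhibitory Dcir receptor of dendritic cells, read 8.79, 7.57 and 7.65 in Mef2c-deficient replicates 1 to 3, against 7.22, 6.93 and 6.83 in control replicates 1 to 3. Its log2 difference was 1.01 (SE 0.38, limma adjusted p = 0.181), with replicate 1 the highest array of each group. Klrg1, whose product binds cadherins on other cells, read 8.95, 8.82 and 8.46 in Mef2c-deficient arrays and 8.01, 8.33 and 7.17 in control arrays. The difference was 0.90 (SE 0.36, limma adjusted p = 0.193). The groups did not overlap, but the gap between Mef2c-deficient replicate 3 and control replicate 2 was smaller than the SD of either group. Clec12b was dim, at 6.03, 6.44 and 6.74 in Mef2c-deficient arrays against 5.63, 5.48 and 5.84 in control arrays, and so was Klrb1b, at 4.59, 5.42 and 4.88 against 4.14, 3.77 and 4.28. Both lay below the 40th percentile of all probe sets, a log2 value of 7.26, where most genes of the array had higher values in Mef2c-deficient cells. A left-out probe set shared by Klrb1b and Klrb1c differed by -0.26, with groups that overlapped.

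Cd300lf, an inhibitory receptor of myeloid cells, had the largest difference of these 5 genes. It read 10.55, 11.25 and 13.31 in Mef2c-deficient replicates 1 to 3, against 9.31, 10.15 and 10.47 in control replicates 1 to 3, a difference of 1.73 on the log2 scale (SE 0.69, limma adjusted p = 0.195). The groups did not overlap, although Mef2c-deficient replicate 1 exceeded control replicate 3 by less than the SD of either group. Without Mef2c-deficient replicate 3 the difference was 0.92 (limma adjusted p = 0.195), and without replicate 3 of both groups 1.17 (0.213). Its neighbour Cd300a, whose product binds phosphatidylserine on dying cells, read 9.84, 10.30 and 14.35 in Mef2c-deficient arrays and 9.51, 9.64 and 10.30 in control arrays. Here a single array set the mean: the log2 difference was 1.68 (SE 1.08, limma adjusted p = 0.329) with all arrays and 0.25 without Mef2c-deficient replicate 3.

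Klra17 encodes Ly49Q, which unlike most Ly49 receptors is known from plasmacytoid dendritic cells and myeloid cells and not from NK cells. It read 8.49, 12.26 and 15.45 in Mef2c-deficient replicates 1 to 3, against 8.50, 8.68 and 11.96 in control replicates 1 to 3. Replicate 3 was the highest array in both groups and Mef2c-deficient replicate 1 lay with the control arrays, so that the log2 difference of 2.35 had an SE of 1.69 (limma adjusted p = 0.371). The unadjusted p was 0.204 in this fit and 0.0130 with the replicate number as a block.

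Receptors known from B cells did not share a direction. Fcgr2b, the inhibitory receptor for antibody complexes, read 13.44, 13.67 and 11.89 in Mef2c-deficient replicates 1 to 3, against 12.56, 12.36 and 12.05 in control replicates 1 to 3 (log2 difference 0.68, SE 0.48, limma adjusted p = 0.368). Siglecg, which restrains B-cell receptor signalling, was the brightest of the 68 probe sets, at 17.41, 17.34 and 15.11 in Mef2c-deficient arrays and 17.01, 16.79 and 16.84 in control arrays. Both were higher in Mef2c-deficient replicates 1 and 2 than in any control array and lowest of all 6 arrays in Mef2c-deficient replicate 3. For Siglecg the log2 difference was -0.26 (SE 0.60, limma adjusted p = 0.763), and it had the opposite sign without Mef2c-deficient replicate 3 (0.50), without replicate 3 of both groups (0.48) and after cyclic loess (0.072). For Fcgr2b it was 1.23 without Mef2c-deficient replicate 3 (limma adjusted p = 0.0767). Treml2, which encodes a receptor known from B cells and macrophages, was also lowest in that array, at 12.25, 12.66 and 11.05 in Mef2c-deficient cells and 12.29, 12.55 and 12.53 in controls. Its log2 difference was -0.47 (SE 0.43, limma adjusted p = 0.464), and it was 0.073 after cyclic loess, 0.022 after quantile normalization and 0.036 without replicate 3 of both groups.

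Among the other inhibitory genes, Siglecf, known from eosinophils, read 5.65, 4.73 and 3.50 in Mef2c-deficient arrays and 3.57, 3.69 and 3.22 in control arrays (1.14, SE 0.52, limma adjusted p = 0.227). With the block its unadjusted p was 0.0261, against 0.0622 without it. Siglece, known from neutrophils and macrophages, differed by 1.21 (SE 0.63, limma adjusted p = 0.262), with 9.70 in Mef2c-deficient replicate 3 as its highest value, and by 0.49 without that array. Klra7, an NK cell Ly49 gene, had a lower mean, at 2.65, 3.02 and 3.67 in Mef2c-deficient arrays and 3.61, 3.54 and 4.73 in control arrays (-0.85, SE 0.43, limma adjusted p = 0.251). It is among the dimmest members and was read by a probe set that can cross-hybridise, as were Trem2, Clec2h, Clec4d, Klra8 and Klra16. Genes of the Ly49 cluster are near-identical copies, so the split of signal between them is uncertain.

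**Figure D1:**
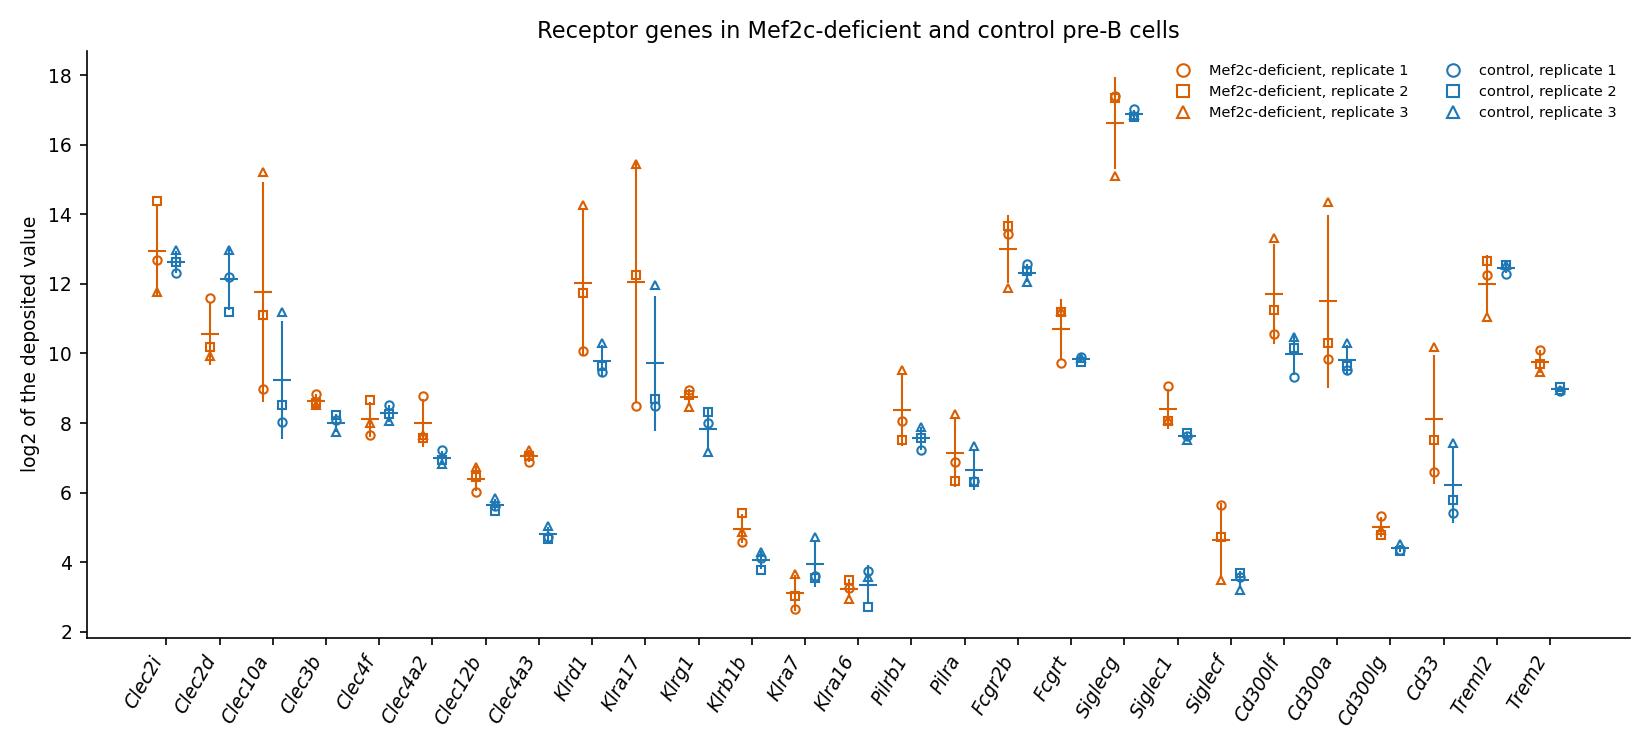
Deposited value on the log2 scale (vertical axis) of 27 receptor genes, grouped by family and ordered by level within it, in 3 Mef2c-deficient arrays (orange, left) and 3 control arrays (blue, right). Symbols mark the replicate number, and bars show the mean and SD of each group. Clec4a3 stood apart with means of 7.06 and 4.81, whereas Klra17 and Clec10a spanned 8.49 to 15.45 and 8.97 to 15.21 in the Mef2c-deficient arrays alone.

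All 21 activating receptor genes had higher means in Mef2c-deficient pre-B cells, and their median log2 difference was 0.58. This rested on a single array: without Mef2c-deficient replicate 3, 11 of the 21 means were higher and 10 lower, with a median of 0.018. A single gene, Trem2, had an unadjusted p under 0.05, where 8.32% of all genes were higher at that p. Trem2, a lipid receptor of macrophages that signals through Tyrobp, read 10.11, 9.70 and 9.48 in Mef2c-deficient replicates 1 to 3, against 8.94, 9.03 and 8.95 in control replicates 1 to 3. The log2 difference was 0.79 (SE 0.27, limma adjusted p = 0.162), a 1.73-fold change as deposited, and 0.94 without Mef2c-deficient replicate 3. Trem2, like Siglecf, was lowest of its group in that array. Fcgr3, a low-affinity activating Fc receptor gene, also had groups that did not overlap, at 9.16, 8.89 and 10.12 in Mef2c-deficient arrays and 8.68, 8.72 and 8.83 in control arrays (0.65, SE 0.36, limma adjusted p = 0.283), but without Mef2c-deficient replicate 3 the difference was 0.28. Clec4n, which encodes the fungal sugar receptor Dectin-2, was the third gene without overlap (0.63, SE 0.29, limma adjusted p = 0.231), though dim on all arrays. Higher groups without overlap were found in 15.8% of all genes.

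The activating receptor genes of NK cells, Klrk1, Klrb1a, Klrb1f, Klrc2 and Klra8, were each highest in Mef2c-deficient replicate 3. Klrk1, which encodes NKG2D, read 5.86, 5.62 and 9.16 in Mef2c-deficient arrays and 5.44, 6.11 and 7.36 in control arrays, with a difference of 0.58 (SE 0.95, limma adjusted p = 0.671). Without Mef2c-deficient replicate 3 the difference was -0.56. Klrc1, the gene of the inhibitory CD94 partner NKG2A, showed the same, at 3.97, 4.64 and 8.85 in Mef2c-deficient arrays and 5.23, 3.84 and 5.65 in control arrays (-0.60 without Mef2c-deficient replicate 3). The paired receptors Pilrb1, which is activating, and Pilra, which is inhibitory, differed by 0.81 (SE 0.52, limma adjusted p = 0.325) and 0.49 (SE 0.54, limma adjusted p = 0.54). Both were highest in Mef2c-deficient replicate 3, at 9.54 and 8.26, without which they differed by 0.23 and -0.069. Trem1, which amplifies inflammation in neutrophils, differed by 0.25 (SE 0.50, limma adjusted p = 0.73).

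The Clec2 genes, a family that includes lectin ligands of the Klrb1 receptors, formed the group with the smallest median, 0.20 over 7 genes, with 6 higher means. Clec2d read 11.58, 10.18 and 9.94 in Mef2c-deficient replicates 1 to 3, against 12.21, 11.20 and 12.97 in control replicates 1 to 3. Each Mef2c-deficient array was below the control array of the same number, though the labels state no pairing. Mef2c-deficient replicate 1 lay above control replicate 2, so the groups overlapped. The log2 difference was -1.56 (SE 0.58, limma adjusted p = 0.177), against a median of -0.67 for genes of like brightness. Without replicate 3 of both groups it was -0.82, with an unadjusted p of 0.202. The receptor gene for its product, Klrb1b, differed the other way by 0.90, at a dim level. A probe set shared by Klrb1b and Klrb1c, left out for its several symbols, did not share this direction. It read 7.85, 7.64 and 8.03 in Mef2c-deficient arrays and 7.85, 8.36 and 8.10 in control arrays (-0.26), with groups that overlapped. Clec2i, which encodes Clr-g, read 12.68, 14.38 and 11.76 in Mef2c-deficient arrays and 12.31, 12.62 and 12.96 in control arrays, with no difference beyond its SE (0.31, SE 0.62, limma adjusted p = 0.728).

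The remaining 22 genes have mixed or unassigned signalling roles. Of these, 19 had higher means, with a median log2 difference of 0.63. Clec4a3, Klrd1 and Clec3b had an unadjusted p under 0.05, where 8.32% of all genes were higher at that p. Clec4a3 read 6.88, 7.05 and 7.24 in Mef2c-deficient replicates 1 to 3, against 4.72, 4.68 and 5.05 in control replicates 1 to 3. Every Mef2c-deficient array lay far above every control array, with means of 7.06 ± 0.18 in Mef2c-deficient and 4.81 ± 0.20 in control cells (SD, n = 3 each). The ratio was 4.73-fold as deposited, and 2.94-fold if the deposited base was e. Unlike the genes below, it did not depend on replicate 3: the difference was 2.15 without Mef2c-deficient replicate 3 and 2.27 without replicate 3 of both groups. The limma adjusted p was 0.0484 without Mef2c-deficient replicate 3 and 0.0162 with array weights, but 0.360 without control replicate 1. Its mean over the 6 arrays lay below the 40th percentile, so a filter at that level removes it.

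Klrd1, Cd33 and Clec10a shared a different order of arrays, with replicate 3 highest in both groups. Klrd1 encodes CD94, the partner of NKG2 receptors. It read 10.08, 11.73 and 14.27 in Mef2c-deficient replicates 1 to 3, against 9.45, 9.63 and 10.29 in control replicates 1 to 3 (2.23, SE 0.93, limma adjusted p = 0.205). Cd33, a sialic acid receptor of myeloid cells, read 6.61, 7.52 and 10.19 in Mef2c-deficient arrays and 5.41, 5.79 and 7.44 in control arrays (1.89, SE 0.93, limma adjusted p = 0.246). Clec10a, the galactose-type lectin of macrophages and dendritic cells, was chosen for its size after its values were seen. It read 8.97, 11.12 and 15.21 in Mef2c-deficient arrays and 8.03, 8.52 and 11.18 in control arrays, the largest difference of the 68 genes with one of the largest errors (2.52, SE 1.52, limma adjusted p = 0.308). In all 3 genes each Mef2c-deficient array exceeded the control of the same number, but control replicate 3 overlapped with Mef2c-deficient arrays. Without Mef2c-deficient replicate 3 the differences were 1.11, 0.85 and 0.80, and without replicate 3 of both groups 1.36, 1.47 and 1.77. When the replicate number entered as a block, the unadjusted p of Clec10a was 0.0031, against 0.139 in the fit without it, and that of Cd33 0.0017, against 0.0784, while the limma adjusted p were 0.0937 and 0.0836.

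The 22 genes of mixed or unassigned role include some that are no receptors of myeloid or NK cells, such as Clec3b. Clec3b encodes tetranectin, a secreted plasminogen-binding protein, and read 8.85, 8.58 and 8.51 in Mef2c-deficient arrays and 8.08, 8.23 and 7.73 in control arrays (0.63, SE 0.27, limma adjusted p = 0.208). Cd300lg, known from the endothelium, differed by 0.61 (SE 0.27, limma adjusted p = 0.213) and was dim, and Clec18a by 0.24 (SE 0.24, limma adjusted p = 0.502). Siglec1, the sialoadhesin gene of macrophages, read 9.07, 8.06 and 8.08 in Mef2c-deficient arrays and 7.63, 7.71 and 7.51 in control arrays (0.78, SE 0.34, limma adjusted p = 0.213). The groups of these 4 genes did not overlap, where 15.8% of all genes had higher groups without overlap. Fcgrt, the neonatal Fc receptor gene that recycles antibodies, read 9.72, 11.20 and 11.21 in Mef2c-deficient arrays and 9.91, 9.77 and 9.86 in control arrays (0.87, SE 0.43, limma adjusted p = 0.25), so that replicate 1 did not share the difference. Clec4f, known from liver macrophages, differed by -0.18 (SE 0.33) and Klra16 by -0.12 (SE 0.35), with limma adjusted p of 0.713 and 0.819.

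**Figure D2:**
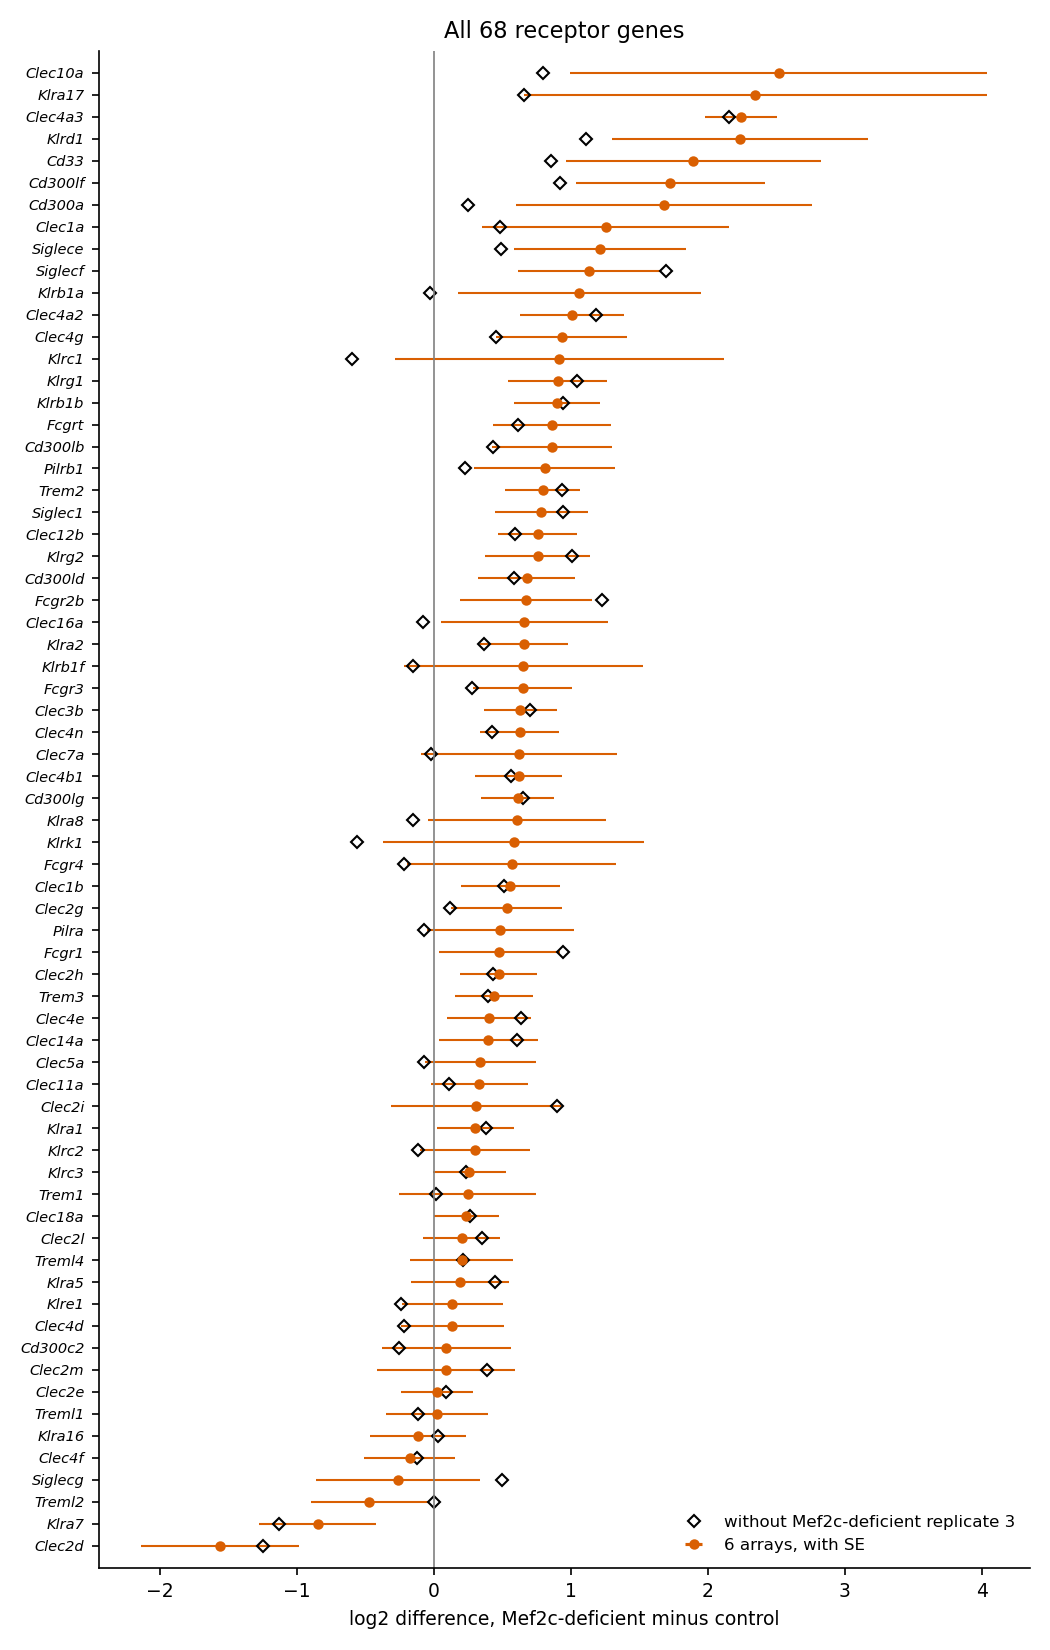
Log2 difference, Mef2c-deficient minus control (horizontal axis), for each of the 68 receptor genes, ordered by size, with all 6 arrays (orange points, bars show the SE) and without Mef2c-deficient replicate 3 (open diamonds). With all arrays 62 genes lay above 0. Without that array Clec4a3 lay at 2.15 in place of 2.24, and Klra17 at 0.66 in place of 2.35.

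Gene clusters hold most of the members. By RefSeq positions (GRCm38.p6), 52 of the 68 lie in 6 runs of 3 or more genes in which neighbours lie less than 1000 kb apart, 4 lie in pairs and 12 have no member nearby. The longest run has 25 Klr and Clec genes, with a median log2 difference of 0.56 and 23 higher means. A second run of 7 genes, Clec4a2, Clec4a3, Clec4b1, Clec4d, Clec4e, Clec4n and Klrg1, had higher means throughout (median 0.63). It held 3 of the 9 genes higher at an unadjusted p under 0.05, where 8.32% of all genes were. Within this run the differences ranged from 0.13 for Clec4d to 2.24 for Clec4a3, so neighbours of Clec4a3 did not share its size. The run of 6 Siglec, Cd33, Fcgrt and Clec11a genes had a median of 1.0, that of 5 Cd300 genes 0.86, that of 3 Fcgr genes 0.65 and that of 6 Trem genes 0.23. With Mef2c-deficient replicate 3 left out the medians were 0.24 for the longest run, with 15 of 25 means higher, 0.64 for the run of Clec4a3, and 0.56, 0.44, 0.28 and 0.11 for the Siglec, Cd300, Fcgr and Trem runs.

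Partners of these receptors were read from 3 further lists. Of 27 measured adaptor and signalling genes, 2 were higher and 4 lower at an unadjusted p under 0.05, against 8.32% and 15.4% of all genes. Gab2, a scaffold adaptor, differed by -2.26 (SE 0.53, limma adjusted p = 0.11), Bcl10, of the Card9 pathway, by -0.91 (SE 0.29, 0.15), Lat2, an adaptor of B and myeloid cells, by -0.78 (SE 0.27, 0.168) and the phosphatase gene Ptpn11 by -0.73 (SE 0.29, 0.192), each lower in every Mef2c-deficient array. Lower groups without overlap were found in 4 of the 27 genes and in 18.7% of all genes. The 2 genes higher at an unadjusted p under 0.05 were Malt1 (1.16, SE 0.47, 0.195) and Tyrobp (2.18, SE 0.90, 0.201), which with Ptpn11, Fcer1g, Hcst and Syk were named outside the rule, by role or after their values were seen. Tyrobp, the adaptor of many activating members, read 15.33, 16.73 and 18.92 in Mef2c-deficient replicates 1 to 3, against 14.45, 14.02 and 15.96 in control replicates 1 to 3. Fcer1g, the adaptor of Fc receptors and Dectin-2, read 10.10, 12.31 and 16.65 in Mef2c-deficient arrays and 10.61, 10.39 and 13.22 in control arrays. Replicate 3 was highest in both groups, as it was for Klra17 and Clec10a. Hcst, the NKG2D adaptor, differed by 0.80 (SE 0.47) and Syk, which B cells also use, by -0.75 (SE 0.46), with limma adjusted p of 0.299 and 0.312.

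Among 29 measured receptors outside the name rule, 5 were higher and 1 lower at an unadjusted p under 0.05, against 8.32% and 15.4% of all genes. Cd209d and Cd209a, mouse relatives of the dendritic cell lectin DC-SIGN, had the largest differences. Cd209d read 13.29, 14.91 and 17.40 in Mef2c-deficient replicates 1 to 3, against 11.24, 10.35 and 12.85 in control replicates 1 to 3 (3.72, SE 1.04, limma adjusted p = 0.131), and Cd209a differed by 3.51 (SE 1.03, limma adjusted p = 0.139). Neither overlapped between groups (higher without overlap in 15.8% of all genes), and both were highest in replicate 3 of each. The others were Cd160 (0.74), Cd209b (0.69) and Siglech (2.95), and the lower gene was the inhibitory B-cell lectin gene Cd72 (-1.26, SE 0.50, limma adjusted p = 0.193). Of 13 measured ligand genes, 1 was higher and 0 lower at that p, against the same shares of all genes. Pianp, which encodes a ligand of the Pilra product, was the higher one. It read 9.19, 9.22 and 9.10 in Mef2c-deficient arrays and 8.44, 8.40 and 8.02 in control arrays (0.88, SE 0.26, limma adjusted p = 0.135). Pvr and Nectin2, ligands of the NK receptor Cd226, differed by 1.18 (SE 0.54, limma adjusted p = 0.227) and 0.82 (SE 0.39, limma adjusted p = 0.235).

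The direction of the receptor genes has to be read beside that of genes of like brightness. On the deposited scale dim genes had higher and bright genes lower values in Mef2c-deficient cells, and 39 of the 68 receptor genes lay at or below the 40th percentile. These 39 had a median log2 difference of 0.57, where 80.0% of all genes so dim had higher means and their median was 0.37. The 29 brighter receptor genes had a median of 0.66, against -0.36 for all genes that bright, and 25 of them had higher means (86.2%, against 37.7%). In the dimmest of 10 equal bins of brightness the 13 receptor genes had a median of 0.40, against 0.39 for all genes. In the seventh and eighth bins the 4 receptor genes in each, Clec10a, Klra17, Klrd1, Cd300lf, Cd300a and Fcgrt among them, had medians of 1.27 and 1.98, where all genes had -0.50 and -0.67. When Mef2c-deficient replicate 3 was left out these were 0.43 and 0.79, where all genes had -0.47 and -0.59. Without that array the 39 dim receptor genes had a median of 0.37, as had all genes so dim, and the 29 brighter ones 0.50, against -0.32. Brightness is the mean over all 6 arrays, so genes high in Mef2c-deficient arrays can enter a brighter bin through them. By control means, Klra17 (9.72), Klrd1 (9.79) and Cd300lf (9.98) lay below the eighth bin, from 10.76, and Clec10a (9.25) below the seventh, from 9.60. Clec4a2 (6.99) and Siglece (7.05) lay below the 40th percentile, 7.26. The gap to all genes is thus partly built in, by an amount that was not tested. Other scalings lowered the median over all 68 genes to 0.28 (cyclic loess), 0.32 (quantile normalization) and 0.44 (median centring), where all genes had 0.00050, -0.0093 and -0.094. For the 29 brighter genes the medians were 0.70, 0.70 and 0.49, and for all genes of that brightness -0.041, -0.10 and -0.52.

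**Figure D3:**
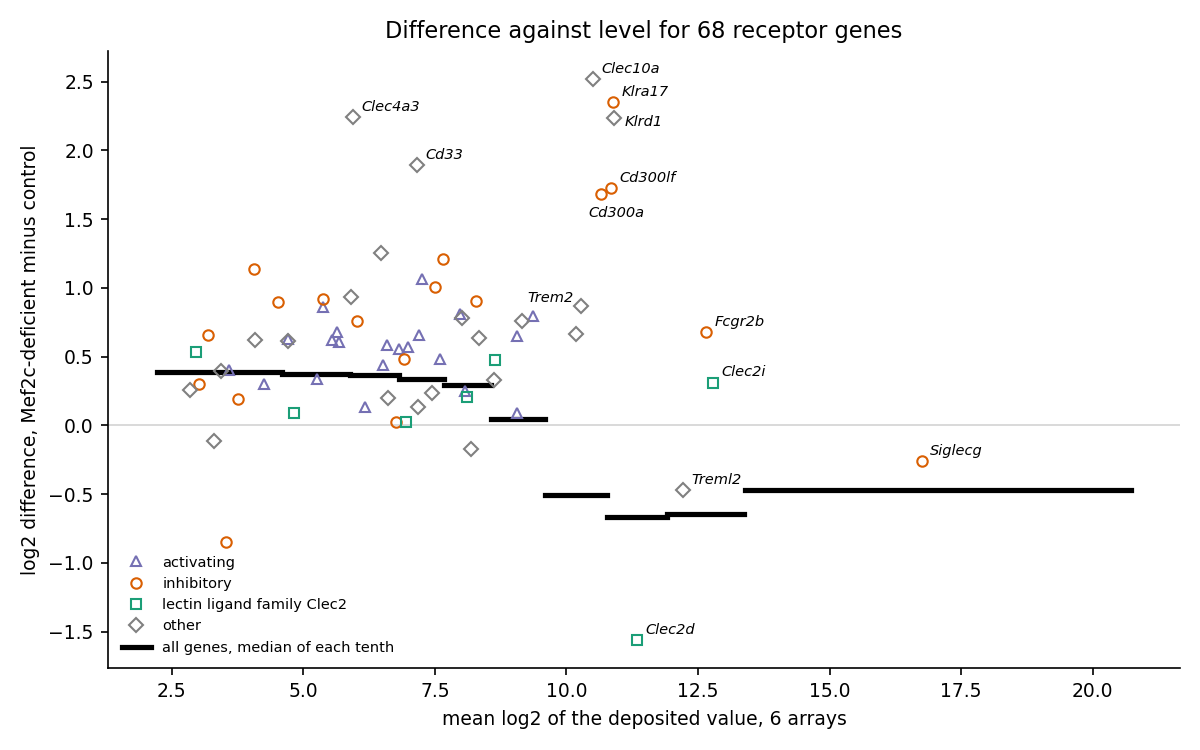
Log2 difference, Mef2c-deficient minus control (vertical axis), against the mean log2 value over 6 arrays (horizontal axis) for the 68 receptor genes, with symbols for their roles. Black lines show the median of all genes in each of 10 equal bins of brightness, 0.39 in the dimmest and -0.47 in the brightest, and Clec2d has the lowest difference of the 68, at -1.56, where all genes of its bin had a median of -0.67.

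Single arrays weighed unequally on these values. Mef2c-deficient replicate 3 was the highest of the 6 arrays in 33 of the 68 receptor genes (48.5%, against 21.0% of all genes), replicate 1 in 17 and replicate 2 in 13. Without Mef2c-deficient replicate 3 the median of the receptor genes was 0.39, and 11 genes (10.8% of all genes) had an unadjusted p under 0.05 and a higher mean, of which 6 were among the 9 above: Clec3b, Clec4a2, Clec4a3, Klrb1b, Klrg1 and Trem2. Without replicate 3 of both groups the median was 0.35, and 9 genes were higher (7.78% of all genes), of which Cd300lf, Clec4a3, Klrb1b and Trem2 were shared. Without control replicate 1 only Clec4a2 and Clec4a3 were higher at that p, where 3.70% of all genes were, and with median centring only Clec4a3, where 3.63% of all genes were. Without control replicate 2 there were 6 such genes (4.78% of all genes) and without control replicate 3 there were 5 (4.41%).

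Marker genes of several other cell types, though not of all, moved with the same arrays. Defining B-lineage genes were bright in the sorted cells: Cd79b read 18.20 to 19.06 in Mef2c-deficient arrays and 18.76 to 19.22 in control arrays, and Cd24a 18.12 to 18.74 in Mef2c-deficient arrays and 18.89 to 19.04 in control arrays. Of 15 measured B-lineage markers, Ebf1, Rag1, Rag2 and Il7r had lower and 0 had higher values at an unadjusted p under 0.05 (15.4% and 8.32% of all genes), and the log2 of their summed values was 20.7 to 21.5 in Mef2c-deficient and 21.3 to 21.7 in control arrays. Of 12 markers of plasmacytoid dendritic cells, 4 were higher (Siglech, Bst2, Ccr9 and Tlr7) and 0 lower. Siglech read 14.41, 16.55 and 18.54 in Mef2c-deficient replicates 1 to 3, against 12.59, 12.51 and 15.53 in control replicates 1 to 3, with replicate 3 highest in both groups as in Klra17, Clec10a, Klrd1 and Cd33. Higher at that p were 3 of 10 markers of conventional dendritic cells (Itgax, Cd209a and Itgae), 2 of 14 of NK cells (Prf1 and Cd160), 1 of 18 of monocytes and macrophages (C1qa), 2 of 8 of T cells (Cd3d and Cd4), 1 of 10 of mast cells and basophils (Gata2) and 0 of 13 of neutrophils, with 0 lower in each, so that the counts for NK cells, monocytes and macrophages, and mast cells and basophils were near the share of all genes. Of 13 erythroid and megakaryocyte markers, 1 was higher (Ppbp) and 1 lower (Car2). The dendritic cell integrin gene Itgax read 9.35, 10.34 and 14.08 in Mef2c-deficient arrays and 6.86, 7.51 and 9.27 in control arrays.

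The median neutrophil marker lay 4.08 above the control mean in Mef2c-deficient replicate 3, against -0.021 and -0.87 in the other Mef2c-deficient arrays and -1.0 to 0.90 in control arrays. For plasmacytoid dendritic cell markers it lay at 0.54, 0.95 and 3.37 in Mef2c-deficient replicates 1 to 3 and at -0.76, -0.28 and 0.70 in control replicates 1 to 3, and for the receptor genes at 0.30, 0.38 and 0.78 and at -0.039, -0.026 and 0.024. Mast cell and basophil markers lay at 0.20, 0.44 and 0.49 in Mef2c-deficient replicates 1 to 3, and erythroid and megakaryocyte markers at 0.37, 0.24 and 0.43. In Mef2c-deficient arrays the log2 of the summed markers was 18.6 to 20.1 for plasmacytoid dendritic cells, 15.5 to 20.3 for neutrophils, 12.9 to 17.7 for monocytes and macrophages and 11.01 to 13.9 for NK cells. In control arrays it was 17.6 to 18.8, 15.1 to 17.5, 13.2 to 14.9 and 10.9 to 12.3 for the same lists. Of 14 NK markers, 12 had higher means in Mef2c-deficient cells, with a median log2 difference of 0.61 (52.5% and 0.073 over all genes). The 2 brightest were highest in Mef2c-deficient replicate 3. Nkg7 read 7.60, 6.91 and 11.92 in Mef2c-deficient arrays and 7.84, 7.57 and 9.05 in control arrays. Ccl5 read 8.41, 7.89 and 12.91 in Mef2c-deficient arrays and 8.64, 8.13 and 11.01 in control arrays. The NK-defining gene Ncr1 had a lower mean and was dim on all arrays, at 4.38, 5.11 and 6.86 in Mef2c-deficient arrays and 6.11, 6.21 and 5.80 in control arrays. Intensities have no true 0, so no marker can be called absent. The bioB control, a bacterial transcript added before hybridisation, was 1.66 to 1.84 higher in Mef2c-deficient arrays. The part of other cells and of these array differences in the receptor values was not tested.

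**Figure D4:**
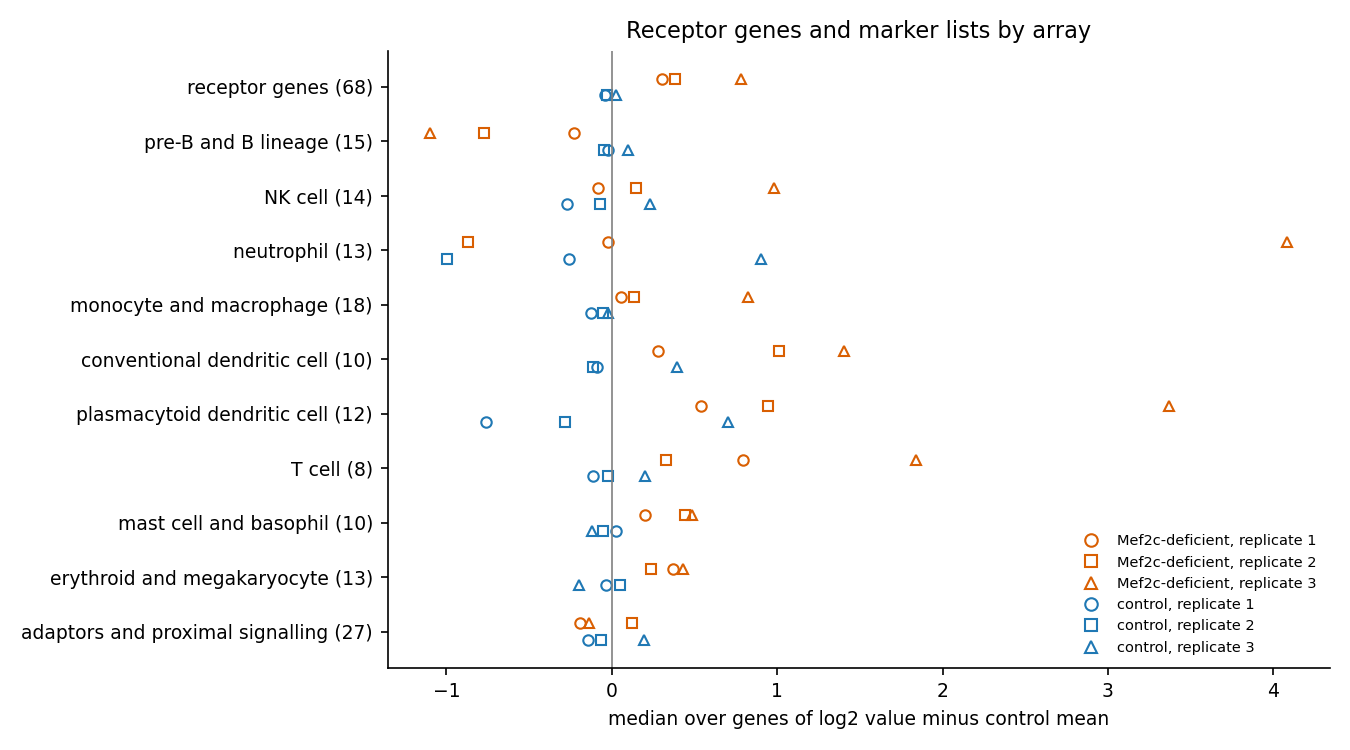
For each list, with its number of genes in brackets, the horizontal axis gives the median of its log2 values after subtracting the control mean of each gene, for 3 Mef2c-deficient arrays (orange, upper of each pair) and 3 control arrays (blue, lower). The receptor genes lay at 0.30, 0.38 and 0.78 in Mef2c-deficient arrays, and the neutrophil markers reached 4.08 in Mef2c-deficient replicate 3 alone.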

How the data were processed

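The authors deposited a single table of linear intensity values for 23913 probe sets, which is part of what the array holds. They had processed the arrays by RMA, with background adjustment and quantile normalization, and used limma, as the study's methods state. Versions of these tools are not stated in the methods or labels, and the detection calls of the study were not used. The highest value, 21.03 on the log2 scale or 14.58 as a natural log, exceeds the 16 bits of a scanner only on the log2 scale. The base is not stated, and differences are printed on the log2 scale of the deposited values.

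Values were log2-transformed with no offset and no filter, so that each member was tested. Probe sets with exactly 1 symbol in GEO's platform annotation (17690, with 524 of several symbols and 5699 unnamed left out) gave 17372 genes, each read by its probe set of the highest mean. All 68 members matched RefSeq by gene identifier, with 0 symbol changes, and a further 4 probe sets of these families carried several symbols. The comparison used limma 3.58.1 (R 4.3.3) with lmFit and eBayes, group as the only term, two-sided, with Benjamini-Hochberg adjustment over all genes and a threshold of 0.05. The fit was tested on simulated data.

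The members and the 12 lists of markers, partners and ligands were chosen with earlier results of these data known. Cd300lg, a member, was left out of the list of receptors outside the name rule. Named were the 12 members with the smallest p in each direction, the 2 brightest of each family, the 3 partner genes of a list with the smallest p and the 2 brightest markers of a list. Of those brightest markers, only Cd79b, Cd24a, Nkg7, Ccl5, Cd4 and Car2 are described. Further genes, such as Clec10a, Siglece, Fcgr3, Klrc1, Klrk1, Trem1, Clec4n, Klra2, Clec18a and markers at an unadjusted p under 0.05, were chosen with their values in view. The labels use replicate numbers 1 to 3 in both groups without explaining them. Deviations from the group means correlated at 0.280, 0.156 and 0.329 between arrays of an equal number and at -0.274 to 0.121 between unequal ones. Equal numbers may thus pair the arrays, on the values and numbers alone. Deviations within a group cancel out, so higher correlations for some pairs bring lower ones for others, and pairing was not tested. The reported fit has no block, and the block is an alternative.

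Alternatives were filters at the 40th and 60th percentile, other scalings, an offset of 16, array weights, trend and robust eBayes, the methods' t-test, other probe set rules, the replicate number as a block and each array left out. Leaving out replicate 3 of both groups was added after the data were seen.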

Additional observations from a re-analysis of the deposited data

How the results depend on the processing

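Of 35 named receptor genes, 25 kept the sign of their difference under each of the 19 alternatives that tested them. These 35 were chosen by p, brightness or size in the same data, and filters dropped some, so this count does not stand for all members. Of all 68, 62 had higher means as reported, 49 without Mef2c-deficient replicate 3 and 51 without replicate 3 of both groups. The count of receptor genes higher at an unadjusted p under 0.05, 9 as reported, was 5 with the 40th percentile filter (of 29 tested), 3 with the 60th (of 16 tested), 17 with array weights and 1 with median centring, where 5.32%, 3.15%, 11.4% and 3.63% of all genes were higher, against 8.32% as reported. It ranged from 2 (without control replicate 1, 3.70% of all genes) to 14 (without Mef2c-deficient replicate 2, 8.55%) when an array was left out. It was 6 without control replicate 2 (4.78% of all genes) and 5 without control replicate 3 (4.41%). The lower count, 1 as reported, was 0 by the methods' t-test and 0 to 1 with an array left out. The count at an adjusted p under 0.05, 0 as reported, was 1 (Clec4a3) with array weights and 0 to 1 with an array left out, and over the alternatives that tested Clec4a3 its adjusted p ranged from 0.0162 to 0.360.

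With the replicate number as a block, 14 receptor genes were higher and 2 lower at an unadjusted p under 0.05, where 9.43% of all genes were higher. Of the 9 genes, 8 were shared, Clec3b was lost, and Cd33, Clec10a, Clec4g, Klra17, Klrg2 and Siglecf were added. The block changed no call at an adjusted p under 0.05 among the receptor genes.

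The median log2 difference of the receptor genes, 0.61 as reported, was 0.28 after cyclic loess, 0.32 after quantile normalization, 0.35 without replicate 3 of both groups and 0.39 to 0.64 with an array left out. Signs changed as follows. Siglecg was 0.000055 with array weights, 0.072 after cyclic loess, 0.48 without replicate 3 of both groups and -0.66 to 0.50 with an array left out. Treml2 was 0.073 after cyclic loess, 0.022 after quantile normalization and 0.036 without replicate 3 of both groups, and Clec18a was -0.034 after cyclic loess. Without replicate 3 of both groups, Klrc1 was -0.23, Klrk1 -0.031, Trem1 -0.18 and Klra16 0.15. With an array left out, Klra16 ranged from -0.43 to 0.086, Klrc1 from -0.60 to 1.84, Klrk1 from -0.56 to 1.21, Trem1 from -0.018 to 0.75, Clec4f from -0.45 to 0.046, Clec2i from -0.41 to 0.90, Pilra from -0.069 to 0.90 and Fcer1g from -0.20 to 3.07. The cause of these changes was not tested. Dim genes limit the precision, since 39 of the 68 lay at or below the 40th percentile, and the small number of arrays limits all tests.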
